A study of Mus musculus with 4 samples.

Results

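The 4 microRNAs (miRNAs) described here, mmu-miR-10a, mmu-miR-10b, mmu-miR-196a and mmu-miR-196b, are the mature miRNAs of the miR-10 and miR-196 families that are encoded inside the mouse Hox gene clusters. They were chosen by name from the spot table, where the entries marked with a star (the other strand of the hairpin) were left out, and all 4 were found among its 710 miRNAs. Total RNA came from the abdominal skin of female C57BL/6JNarl mice aged 6 to 8 weeks. The solvent control was 100 μl of acetone on the skin. Shikonin, a naphthoquinone from plant roots, was given at 10 μg/μl in the same volume of acetone. Skin was taken 24 hr later. Each treatment was measured on 2 arrays, 4 in all. The study calls them biological replicates, but no source used here says that they came from separate mice. The p-values therefore rest on the spread between arrays, part or all of which may be technical.

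Hox genes encode transcription factors that give cells their position along the body axis, and their order in each cluster follows the order of the body regions in which they act. Fibroblasts of adult skin keep a Hox pattern typical of their body site. The genes of miR-10 lie near the Hox4 genes and those of miR-196 near the Hox9 and Hox10 genes, and both families are known to repress Hox mRNAs. In mouse embryos miR-196a directs the cleavage of the Hoxb8 mRNA, in zebrafish miR-10 represses Hoxb1a and Hoxb3a, and in human breast cancer cells miR-10b represses HOXD10. Hox mRNAs were not measured on these arrays, and abdominal skin was the only body site on them, so they allow no comparison between positions.

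The mature sequences show what the probes could tell apart. The probes are reverse complements of mature miRNAs, and a captured miRNA is extended with biotinylated nucleotides. The sequences of RefSeq (build GRCm38.p6) follow from 5′ to 3′, with the seed (bases 2 to 8, which pair with target mRNAs) in capitals. The array names carry no strand and were matched to the entries of the 5p strand.
miR-10a: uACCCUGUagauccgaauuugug
miR-10b: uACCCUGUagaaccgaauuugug
miR-196a: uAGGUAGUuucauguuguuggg
miR-196b: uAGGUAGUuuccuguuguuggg
miR-99a: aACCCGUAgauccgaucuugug
miR-99b: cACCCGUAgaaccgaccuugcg
miR-100: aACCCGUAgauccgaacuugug

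miR-10a and miR-10b share their seed with each other and with no other mouse mature miRNA of the RefSeq table. They differ by 1 base, U12A, counted from 1 at the 5′ end of miR-10a. miR-196a and miR-196b likewise share a seed that no other entry holds and differ by A12C, counted the same way. A pair of miRNAs that differ at 1 inner base can cross-hybridize, so the values of miR-10a and miR-10b may not be independent of each other, nor those of miR-196a and miR-196b. The members of the miR-99 and miR-100 group, relatives of miR-10 encoded outside the Hox clusters, have a different seed. They still share runs of bases with miR-10: 11 bases between miR-10a and miR-100, and 10 each between miR-10a and miR-99a and between miR-10b and miR-99b. How far such runs bind the probes was not tested.

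In GRCm38.p6, mature miR-10a lies at chr11:96317186-96317208 on the + strand, inside the span of the protein-coding gene Hoxb3 and between Hoxb5 and Hoxb4. Mature miR-10b lies at chr2:74726074-74726096 on the + strand, inside the spans annotated for Hoxd3 and Hoxd4. Mature miR-196b is encoded at chr6:52230129-52230150 on the - strand, between Hoxa9 and Hoxa10 and inside neither. miR-196a has 2 genes. Mir196a-1 encodes it at chr11:96265187-96265208 on the + strand, between Hoxb13 and Hoxb9, and Mir196a-2 at chr15:102973365-102973386 on the + strand, between Hoxc10 and Hoxc9. The hairpins of these genes are shown because they differ outside the mature strand, which is in capitals and identical in both, so the probe of miR-196a cannot tell the Hoxb from the Hoxc cluster.
Mir196a-1: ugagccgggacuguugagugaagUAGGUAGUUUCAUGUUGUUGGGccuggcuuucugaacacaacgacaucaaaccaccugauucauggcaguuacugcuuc
Mir196a-2: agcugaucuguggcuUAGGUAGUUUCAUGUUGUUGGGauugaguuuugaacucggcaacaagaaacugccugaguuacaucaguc

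Each miRNA had 8 spots on each array, and a spot's intensity is a brightness on a linear scale with no background subtracted. The median spot of an array was between 352 and 488. Background was read from 33 miRNAs of brain, liver, pancreas, embryonic stem cells and testis, 1 of which (miR-878-3p) was itself above the threshold on some array. A miRNA counted as above background where its median spot was more than 3 scaled MAD (median absolute deviation) over their median, which put the threshold at 419 and 475 for acetone and at 453 and 566 for shikonin. By this rule 198 to 226 of the 710 miRNAs were above background on an array, 136 on all 4 and 444 on none. Markers of skin cells were present: all 7 keratinocyte miRNAs and all 5 fibroblast and smooth muscle miRNAs were above background on at least 1 array. The array of shikonin replicate 2 stood apart, since the spots in the first 10% of its rows had a median of 1040 against 464 in the rest, where the other 3 arrays had 424 to 432 against 336 to 416. Each of the 4 Hox cluster miRNAs had 1 of its 8 spots there. The sources used here do not say whether the row order is that of the chip.

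Both miR-10 miRNAs were measurable in acetone-treated abdominal skin, and neither miR-196 miRNA was above background on any array. With acetone the median spot of miR-10a was 504 and 648, and with shikonin it was 364 and 484. It was above the background threshold on both acetone arrays and under it on both shikonin arrays. The median spot of miR-10b was 492 and 548 in acetone-treated and 368 and 412 in shikonin-treated skin, again above the threshold on both acetone arrays only. The pattern of being above background on both acetone arrays and on neither shikonin array was found for 2 of the 4 miRNAs. Over all miRNAs it was found for 27 of 710 (3.80%), and the reverse pattern for 8 of 710. The 444 miRNAs above background on no array could show neither pattern, which lowers these shares. As the 2 miRNAs can cross-hybridize, they may not count as 2 separate cases.

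miR-196a had median spots of 340 and 340 in acetone-treated and 272 and 396 in shikonin-treated skin. The highest of these lay on shikonin replicate 2, the brightest array, and was under the threshold there. miR-196b had 276 and 328 in acetone-treated and 320 and 356 in shikonin-treated skin. These values were 0.840 to 0.976 times the background median of their array for miR-196b and 0.829 to 1.09 times for miR-196a, so no level could be read from them. For miR-10a the same ratio was 1.62 and 1.76 with acetone and 1.11 and 1.14 with shikonin, and for miR-10b it was 1.58 and 1.49 against 1.12 and 0.972. A value at background shows neither that a miRNA is absent from the skin nor that its probe works, and the brightness of one probe cannot be set against that of another. The order of the 4 miRNAs in the skin is therefore not known from these arrays.

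**Figure D1:**
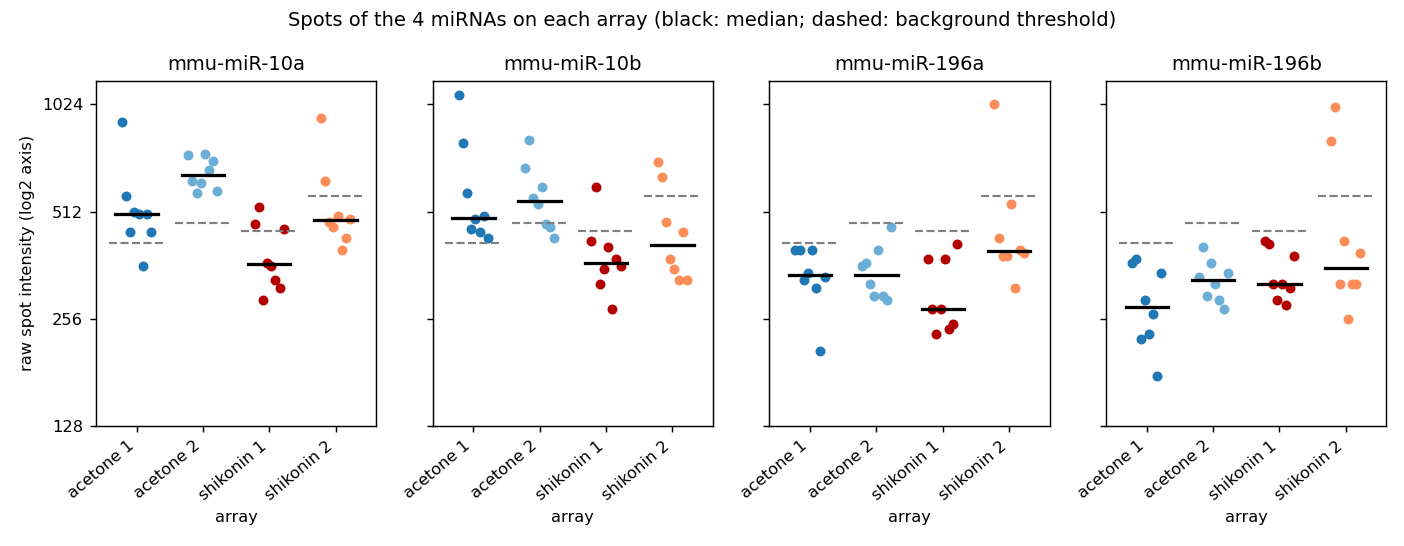
Raw intensity of each of the 8 spots (points, log2 axis) of the 4 miRNAs on the 4 arrays, with the median of the spots as a black line and the background threshold of the array as a dashed line. The medians of miR-10a and miR-10b lie above the threshold on both acetone arrays and under it on both shikonin arrays, and those of miR-196a and miR-196b lie under it on all 4.

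The single spots followed their medians. For miR-10a, 7 and 8 of 8 spots exceeded the threshold on the acetone arrays, with ranges of 360 to 912 and 576 to 744. On the shikonin arrays 3 and 2 of 8 did, with ranges of 288 to 528 and 400 to 936. For miR-10b, 8 and 5 of 8 spots exceeded it on the acetone arrays (432 to 1088 and 432 to 816) and 1 and 2 of 8 on the shikonin arrays (272 to 600 and 328 to 704). The ranges of single spots overlapped between the groups while their medians did not, although before scaling the median of miR-10a on acetone replicate 1 (504) was close to that on the brighter shikonin replicate 2 (484). For miR-196a and miR-196b 0 of 8 spots exceeded the threshold on any array but shikonin replicate 2, where 1 and 2 did. These were 1024 in row 302 for miR-196a, and 808 in row 368 and 1008 in row 588 for miR-196b. Near those rows the running median of all spots on that array was itself 1104, 1160 and 976.

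The comparison of shikonin with acetone asks whether these miRNAs were altered 24 hr after treatment. Arrays were quantile normalized and log2 was taken. With acetone, miR-10a had a normalized level (log2) of 9.30 and 9.16, and with shikonin one of 8.60 and 8.68. Both shikonin values lay below both acetone values. The means were 9.23 ± 0.10 and 8.64 ± 0.06 (SD, n = 2 each), a difference of -0.59 (SE 0.097, log2). In these normalized values the acetone mean of miR-10a was thus at least 1.23-fold higher. It is an estimate from 2 arrays per group, for a difference that did not pass the test given below. This is a bound because miR-10a was not above background in shikonin-treated skin: its acetone mean was set against, for each shikonin array, the higher of its own value and the threshold. The measured ratio was 1.51.

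miR-10b behaved like miR-10a, from which its probe differs at 1 base. Its normalized level (log2) was 9.24 and 8.99 with acetone and 8.61 and 8.46 with shikonin, so the groups did not overlap here either. The means were 9.11 ± 0.18 and 8.54 ± 0.11 (SD, n = 2 each), a difference of -0.58 (SE 0.13, log2). The bound, an estimate of the same kind, was at least 1.13-fold, with a measured ratio of 1.49. No background was subtracted, so these ratios may understate any differences. After normexp background correction the measured difference (log2) was -1.0 (SE 0.21) for miR-10a and -1.03 (SE 0.24) for miR-10b. The SE was thus larger as well, and neither passed (limma adjusted p = 0.0815 and 0.0925). No fold is given for these, since their shikonin side was not above background.

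Neither miR-10 miRNA passed the test over all miRNAs. The adjusted p of limma (Benjamini-Hochberg over 710 miRNAs) was 0.134 for miR-10a and 0.157 for miR-10b, each lower on 2 of 2 shikonin arrays. Of the 4 Hox cluster miRNAs 0 passed, against 2 of 710 (0.282%) overall. The unadjusted p of limma was 0.00378 and 0.0122, so 2 of the 4 were lower at an unadjusted p under 0.05, against 78 of 710 (11.0%). Likewise 2 of the 4 were lower on both shikonin than on both acetone arrays, against 190 of 710 (26.8%). Among the 136 miRNAs above background on all arrays that share was 62 of 136 (45.6%). An exact two-sided permutation test of 1 miRNA cannot go below p = 0.333 with 2 arrays against 2.

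For reference, the median difference was -0.01 (log2) over all 710 miRNAs and -0.23 over the 136 above background on all arrays, and -0.46 over the 111 of these outside the repeat-rich families miR-669, miR-467, miR-466 and miR-297. Of the 136, 49 (36.0%) had a difference at or below the measured one of miR-10a, and 50 (36.8%) at or below that of miR-10b. These places hold for the measured differences only. The values of miR-10a and miR-10b in shikonin-treated skin were at background, so the full size of their differences is not known.

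miR-196a had a normalized level (log2) of 8.63 and 8.35 with acetone and of 8.18 and 8.41 with shikonin. Its groups overlapped in these values, with shikonin replicate 2 above acetone replicate 2, but not with a local level removed from each array (described below). The means were 8.49 ± 0.20 and 8.29 ± 0.16 (SD, n = 2 each), with a difference of -0.20 (SE 0.15, limma adjusted p = 0.600). The normalized level of miR-196b was 8.34 and 8.29 on the acetone and 8.41 and 8.28 on the shikonin arrays, the means were 8.32 ± 0.03 and 8.35 ± 0.09 (SD, n = 2 each), and the difference was 0.03 (SE 0.091, limma adjusted p = 0.910). As both were below background in both groups, no fold is given and a difference in the skin was not detectable with these arrays.

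**Figure D2:**
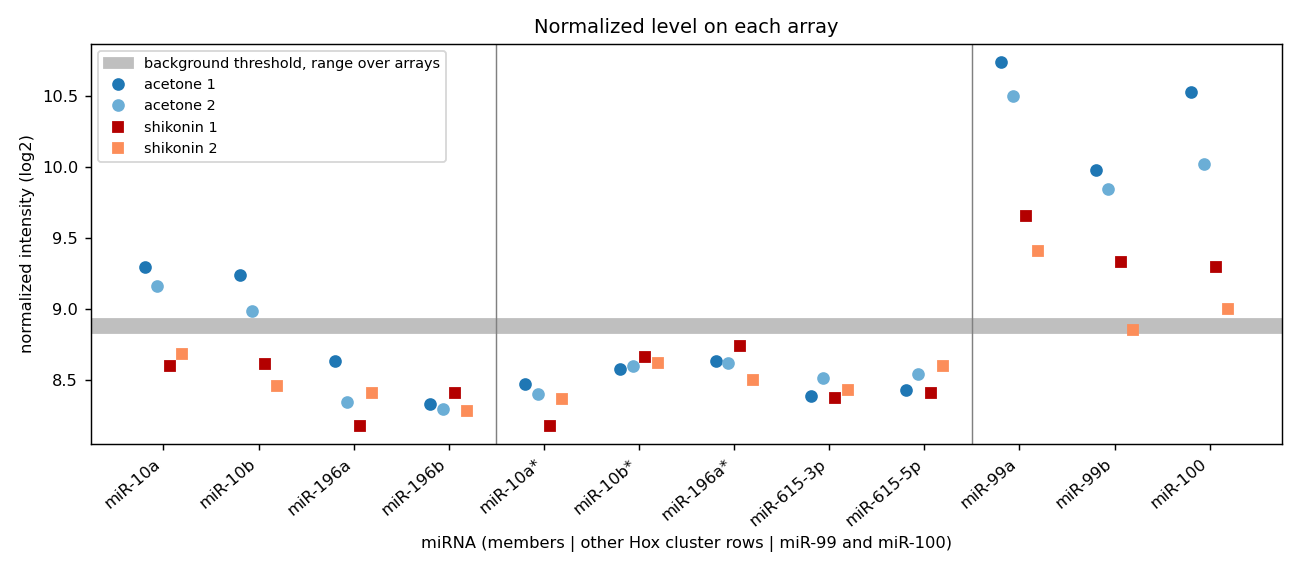
Normalized intensity (log2) on each array, acetone as circles and shikonin as squares, for the 4 miRNAs, for the other Hox cluster entries and for miR-99a, miR-99b and miR-100, with the range of the background threshold over the arrays as a grey band. miR-10a and miR-10b pass from above the band to below it, miR-196a, miR-196b and the other Hox cluster entries lie below it on every array, and miR-99a and miR-100 lie above it on every array.

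Spots in the same row of the spot table were compared next, because shikonin replicate 2 was brighter in some rows than in others. Each spot was divided by the running median of its array over 285 neighbouring rows, a local level that is close to background over most rows. In the bright stretch of shikonin replicate 2 it reached 1160, against a background median of 424 on that array. The median of this ratio for miR-10a was 1.53 and 1.56 with acetone and 0.969 and 1.08 with shikonin. Relative to the local level both shikonin spots of miR-10a lay below both acetone spots in 8 of 8 rows. Of the raw spots of miR-10a this held in 3 of 8 rows. In row 7, within the bright stretch of shikonin replicate 2, the raw spots were 912 and 736 on the acetone and 472 and 936 on the shikonin arrays. The other rows without this order, 1176, 2123, 3911 and 5231, all lay outside that stretch. In row 5231 the raw spots were 448 and 584 against 456 and 488.

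For miR-10b the median ratio was 1.44 and 1.27 with acetone and 0.904 and 0.900 with shikonin, and relative to the local level both shikonin spots were below both acetone spots in 8 of 8 rows as well. The raw spots of miR-10b had this order in 7 of 8 rows, the exception being row 118 with 1088 and 680 against 424 and 704. Over all miRNAs, the order held in every row with 4 values for 83 of 710 (11.7%) relative to the local level, among them 2 of the 4 Hox cluster miRNAs, and for 53 of 710 (7.46%) in raw spots, among them 0 of the 4. The rows of an array share its RNA and are not replicates of the treatment. Relative to the local level, miR-196a had this order in 3 of 8 rows, with median ratios of 0.981 and 0.817 against 0.731 and 0.797, and the reverse order in 0. miR-196b had it in 0 of 8 rows and the reverse in 2, with median ratios of 0.846 and 0.756 against 0.852 and 0.777.

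**Figure D3:**
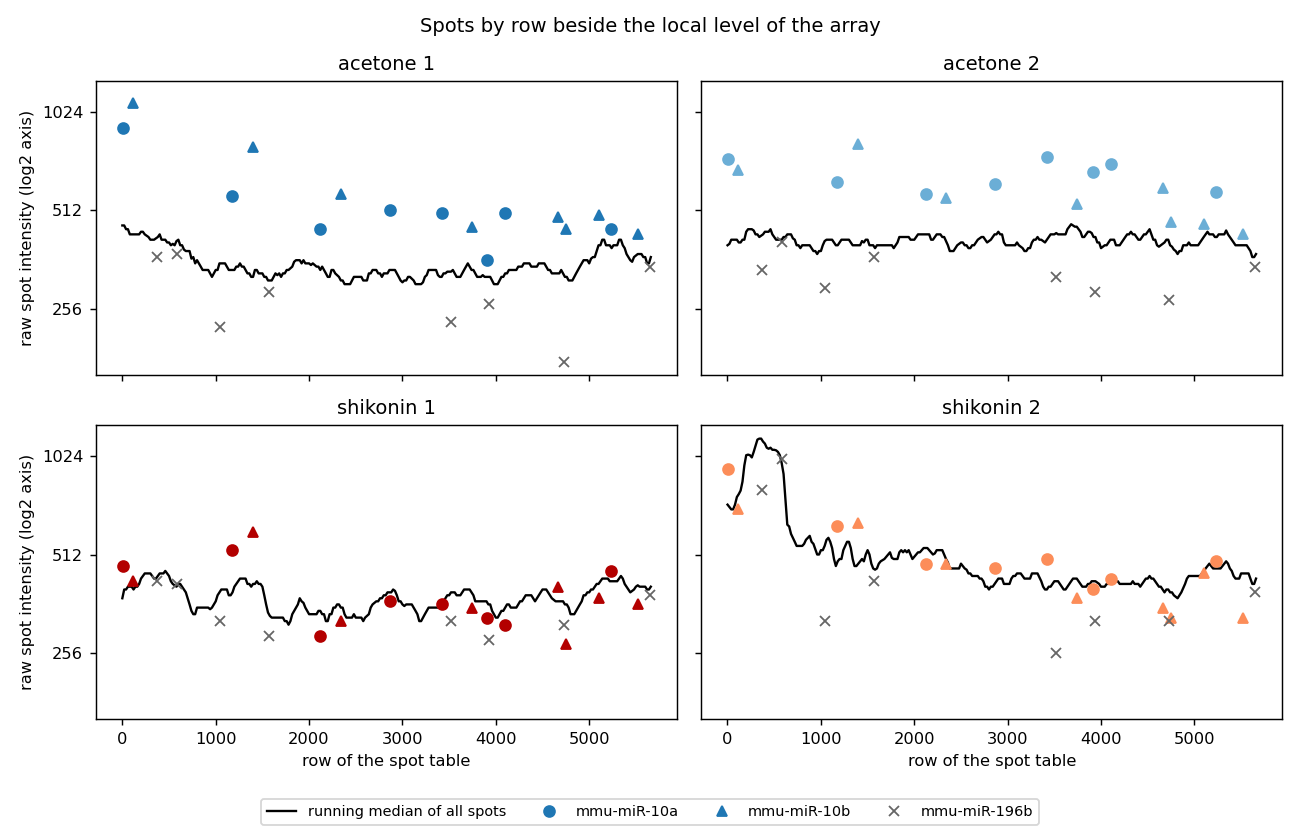
Raw intensity (log2 axis) of the spots of miR-10a, miR-10b and miR-196b against their row in the spot table, with the running median of all spots over 285 rows as a line, for each array. Spots of miR-10a and miR-10b lie above the line on both acetone arrays in 8 of 8 rows each. On shikonin replicates 1 and 2, 3 and 5 of 8 spots of miR-10a and 3 and 1 of 8 spots of miR-10b lie above it. The line of shikonin replicate 2 rises above the rest in the first 10% of the rows.

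The other entries encoded in the Hox clusters were all at background. miR-10a* and miR-10b*, the -3p strands of the same hairpins, had normalized levels (log2) of 8.18 to 8.47 and of 8.58 to 8.67 over the 4 arrays. Their differences were -0.16 and 0.05. miR-196a* lay between 8.50 and 8.74, with a difference of -0.01. miR-615-3p and miR-615-5p, from a hairpin inside the span of Hoxc5, lay at 8.38 to 8.52 and 8.41 to 8.60, with differences of -0.05 and 0.02. None of these 5 was above background on any array. On raw spots, detection in the Hox clusters was thus limited to the mature miR-10a and miR-10b strands, among the 9 entries named. No threshold was applied to the authors' deposited log2 values. In those, miR-196a was at 8.17 on acetone replicate 1 and miR-196a* at 8.34 on shikonin replicate 1.

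Of the relatives of miR-10 outside the Hox clusters, miR-99a and miR-100, which in human cells repress MTOR, were above background on all 4 arrays. miR-99b was above it on both acetone arrays and on 1 of 2 shikonin arrays. The normalized level (log2) of miR-99a was 10.74 and 10.50 with acetone and 9.66 and 9.41 with shikonin, a difference of -1.09 (SE 0.15, limma adjusted p = 0.125). That of miR-100 was 10.53 and 10.03 against 9.30 and 9.0, a difference of -1.13 (SE 0.22, limma adjusted p = 0.143). miR-99b was at 9.98 and 9.85 against 9.33 and 8.85, a measured difference of -0.82 (SE 0.19, limma adjusted p = 0.161) whose last value lay under the threshold. All 3 were lower on both shikonin arrays, as were miR-10a and miR-10b, and none passed. In the rows with 4 values, both shikonin spots were below both acetone spots, raw as well as relative to the local level, in 8 of 8 rows for miR-99a, 7 of 7 for miR-99b and 6 of 6 for miR-100. Whether signal of these relatives enters the probes of miR-10 was not tested.

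Profiles over the 4 arrays were compared by the root mean square distance (log2) between miRNAs centred on their own means, among 215 miRNAs whose mean was above the threshold. With 4 points that share their arrays this is a description only. Nearest to miR-10a were miR-107 (0.042), miR-130b (0.078) and miR-26b (0.087), and nearest to miR-10b were miR-130b (0.030), miR-26b (0.042) and miR-185 (0.066). Unlike miR-10a, miR-107 was above background on every array, at 9.72 and 9.47 against 9.0 and 9.04, a difference of -0.57 (SE 0.12). miR-130b had a difference of -0.54, miR-26b of -0.60 and miR-185 of -0.45. The miRNAs nearest to miR-196a were miR-451, typical of red blood cells (0.052), miR-652 (0.069) and miR-669k (0.076). miR-196b had miR-1894-3p (0.028), miR-1939 (0.052) and miR-296-5p (0.054) nearest, which varied as little over the arrays as it did, and likeness to a miRNA at background has no further content.

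Like miR-10a and miR-10b, the markers of keratinocytes and striated muscle and most of those of fibroblasts and smooth muscle were lower with shikonin. Most leukocyte markers were not. Over all miRNAs, 190 of 710 (26.8%) were lower on both shikonin than on both acetone arrays. Among those above background on all arrays, 62 of 136 (45.6%) were. In whole skin, fewer cells of a type and less RNA per cell cannot be told apart. All 7 keratinocyte miRNAs were lower on both shikonin than on both acetone arrays, with a median difference of -1.05 (log2) and summed normalized levels (linear) of 13121 and 11401 against 7318 and 3634.5. Of 5 fibroblast and smooth muscle miRNAs 4 were lower and 1 higher (median -1.03), with sums of 11639 and 9225 against 6378 and 9351. All 4 striated muscle miRNAs were lower (median -0.80), with sums of 10350 and 5442 against 3298.5 and 4284. Of 5 leukocyte miRNAs 1 was lower (median -0.11), with sums of 3376 and 3822 against 3150 and 4792.5, and miR-142-3p and miR-155 were above background on no array. Of the 2 endothelial miRNAs miR-126-3p was lower and miR-126-5p, at background, higher, with sums of 4443 and 2972 against 1804 and 1799. Their part in the lower values of miR-10a and miR-10b was not tested.

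The difference stayed below 0 under 19 of 20 alternative ways of processing for miR-10a and under 18 of 19 for miR-10b. The exception was scaling to the 75th percentile of the 136 miRNAs above background on all arrays, under which the median difference of the 710 miRNAs was 0.86 (log2). There miR-10a was at 0.27 and miR-10b at 0.30, which is -0.59 and -0.56 relative to that median. With a variance prior that follows intensity both passed in limma, with adjusted p of 0.0209 and 0.0128. In that setting 38 of 710 miRNAs passed, against 2 in the reported one. The SE of the 2 differences was not smaller there, at 0.161 and 0.141 against 0.097 and 0.13. Over the other alternatives the adjusted p in limma was from 0.0753 to 0.981. Without each array in turn the difference was -0.67 to -0.53 for miR-10a and -0.66 to -0.45 for miR-10b.

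**Figure D4:**
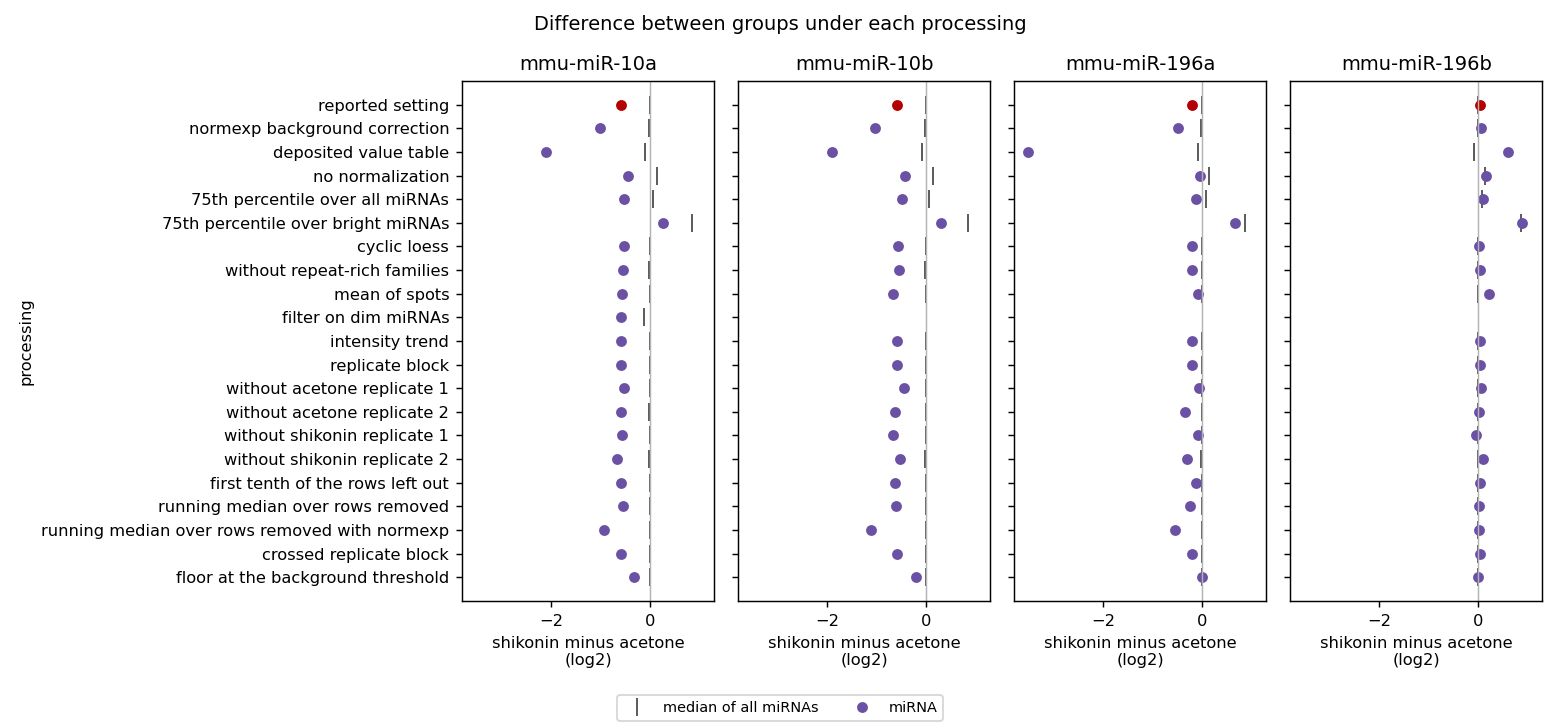
Difference between shikonin and acetone (log2) of the 4 miRNAs under the reported processing (red) and each alternative (violet), with the median difference of all miRNAs under the same processing as a vertical tick. miR-10a and miR-10b lie left of the tick in every setting that gives a value, and miR-196a and miR-196b lie near it in most.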

How the data were processed

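Spot intensities, not normalized, were deposited by the authors in 1 table with 8 spots for each miRNA on each of 4 febit Geniom biochips (primer extension with biotinylated nucleotides, probes against miRBase). A second deposited table gives the authors' log2 values, 1 for each miRNA and array. It was used as an alternative, since the sources used here do not say how its spots were summarised or its background removed. Columns were mapped by their labels.

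The median of the spots (empty spots, 239 to 398 of 5680 per array, left out) was quantile normalized on the linear scale, set to at least 1 and taken to log2. The groups were compared with limma 3.58.1 in R 4.3.3 (lmFit and eBayes, two-sided, Benjamini-Hochberg over 710 miRNAs, threshold 0.05), with no filter and no background correction. The code was tested on simulated data. The number of arrays limits the precision. Alternatives covered background correction (normexp, offset 50), normalization, the spot summary, a filter, an intensity trend, the replicate block and leaving out each array. Those on row position, a floor at the background threshold and a crossed block were chosen after seeing the data.

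The miRNAs named were the 4 members, entries of their other strands, miR-615, the relatives miR-99a, miR-99b and miR-100, for each member the 3 nearest profiles, and cell type markers. Members and lists were chosen with earlier results of these data known. miR-878-3p, miR-142-3p and miR-155 were singled out after their values were seen. Sequences and positions are from RefSeq tables of GRCm38.p6. The deposited tables name no build. miR-196a* was not matched to 1 sequence.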

Additional observations from a re-analysis of the deposited data

How the results depend on the processing

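The differences of the 4 miRNAs kept their direction and their side of the threshold under the alternatives tried, except as follows. Scaling to the 75th percentile over the 136 bright miRNAs, under which the median of all miRNAs was 0.86 (log2), gave 0.27 for miR-10a, 0.30 for miR-10b, 0.67 for miR-196a (limma adjusted p = 0.0378) and 0.88 for miR-196b (limma adjusted p = 0.00984), with 0 of the 4 lower on both shikonin arrays. With an intensity trend the differences stayed at -0.59 for miR-10a and -0.58 for miR-10b, and both passed, as did 38 of 710 miRNAs in all. Leaving out 1 array gave -0.039 to 0.091 for miR-196b, with the negative value without shikonin replicate 1. In the deposited value table the differences were -2.10, -1.90, -3.51 and 0.61, in the order above. There the log2 value of miR-196a was 8.17 and 3.83 on the acetone arrays against 0.82 and 4.16. On acetone replicate 1 those values did not follow the order of the raw medians. There miR-10a was at 7.87, below miR-196a, while its raw median spot was 504 against 340 for miR-196a. With the floor at the background threshold they were -0.33 and -0.21 for miR-10a and miR-10b, and 0 for miR-196a and miR-196b, which have no direction there. With each local level removed the differences of miR-10a and miR-10b were -0.55 and -0.61. There miR-196a was also lower on both shikonin arrays, at 8.65 and 8.38 with acetone against 8.21 and 8.34. In that setting 3 of the 4 were thus lower, with or without normexp. The filter on dim miRNAs kept only miR-10a of the 4.

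The number of miRNAs past the threshold in limma was 2 (125 at an unadjusted p under 0.05). It was 83 with no normalization, 610 with scaling over bright miRNAs (582 of them higher), 38 with an intensity trend and 5 with the filter. It was 1 with the local level removed, with or without normexp. It was 0 with the value table (23 at an unadjusted p under 0.05), cyclic loess (115), the mean of spots (126), the first 10% of rows left out (125), the floor (45) and each array left out (63 to 101).

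Same-numbered arrays of the 2 groups share only a number in the labels, and their deviations from the group means correlated at r = -0.28 over miRNAs. With the replicate number as a block, limma's count was 0 (116 at an unadjusted p under 0.05). The adjusted p was then 0.210 for miR-10a and 0.197 for miR-10b. With the crossed pairing the count was 35.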
